A study of Arabidopsis thaliana with 23 samples.

Results

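The 10 NF-YA genes of Arabidopsis thaliana, NF-YA1 to NF-YA10, were read by their gene identifiers from the count tables of seedlings and of axillary tissue, which hold 32224 and 32833 genes. All 10 were present in both tables and all 10 passed the filter on low counts in both. Of the 23 samples in the series, 15 are RNA-seq libraries in 5 groups of 3, and the 8 CUT&Tag samples were not analysed here. All plants were of the Col-0 background. Whole seedlings grew for 7 days on plates with 2.5 µM rac-GR24, a synthetic strigolactone analogue, or with DMSO, its solvent. Axillary tissue, meaning axillary buds with the rosette leaf axils that bear them, came from WT plants with the main shoot cut off below the lowest cauline node (Decapitated_WT), from intact plants of the brc1-2 mutant (Intact_brc1-2) and from intact WT plants (Intact_WT). The labels state neither the time from decapitation to harvest nor whether a group's libraries were made from different plants, and p-values therefore reflect library-to-library spread that may be technical.

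NF-Y is a transcription factor of 3 kinds of subunit. NF-YB and NF-YC pair through histone-like folds, and NF-YA joins the pair and recognises the CCAAT box in promoters, so that NF-YA supplies the sequence-specific contact. Plants carry each subunit as a gene family, and many NF-YA transcripts in Arabidopsis are cleaved by the microRNA miR169. BRC1, the gene mutated in brc1-2, encodes a TCP transcription factor that holds axillary buds back, and decapitation removes the apex that keeps buds dormant.

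In axillary tissue most NF-YA transcripts were lower in decapitated WT and in intact brc1-2 than in intact WT. NF-YA3, NF-YA4, NF-YA5, NF-YA7, NF-YA8, NF-YA9 and NF-YA10 were each called lower in decapitated WT and also in intact brc1-2, each time against the same 3 intact WT libraries, which both comparisons share. NF-YA1 was called lower in decapitated WT and NF-YA6 in brc1-2. No NF-YA gene was called higher in any of the 4 comparisons. In seedlings NF-YA2 was the only member called, and it was lower on rac-GR24. Over all genes tested, 33.5% were called lower after decapitation, 30.5% in brc1-2 and 11.7% on rac-GR24. The share called lower in both axillary comparisons was not counted, so the members lower in both have no share beside them.

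Seedling libraries held 31209344 to 44442493 counts each, and axillary libraries 47462342 to 61228766. BRC1 itself had 95, 99 and 77 counts in decapitated WT, 2, 4 and 2 in intact brc1-2 and 392, 373 and 423 in intact WT, so the libraries labelled brc1-2 were the ones nearly without it. In seedlings BRC1 had 279, 140 and 94 counts on rac-GR24 and 0, 0 and 2 on DMSO. The 7 markers of the leaf axil and bud summed to between 45.4 and 55.4 TPM, a level scaled by exon length and library total, in the axillary libraries and to between 7.78 and 16.2 TPM in the seedling libraries, and none of them was at 0 throughout an axillary group. STM made up most of the axillary sum, and the other markers did not all follow it. LAS had 0.73, 0.70 and 0.57 TPM in intact WT and 1.26, 2.03 and 1.315 TPM on DMSO. RAX1 and CUC3 overlapped between intact WT and DMSO. These are bulk samples, in which fewer cells of a type and less RNA per cell cannot be told apart.

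Levels of the members are also given in TPM, which divides each count by exon length and by the library's total over the 32224 genes in both tables, so that genes can be compared with each other. NF-YA4 (AT2G34720; TAIR10 chromosome 2, 14649706 to 14651709), whose product works with bZIP28 in the endoplasmic reticulum stress response, was the most abundant member in all 5 groups. It averaged 44.7 ± 0.7 TPM on rac-GR24, 47.2 ± 4.5 on DMSO, 44.9 ± 1.7 in decapitated WT, 46.8 ± 1.6 in intact brc1-2 and 55.8 ± 3.0 in intact WT (SD, n = 3 each), or 37.6% to 38.6% of the summed NF-YA level. NF-YA1 (AT5G12840; chromosome 5, 4050691 to 4053669) was second in every group, with means from 24.2 TPM in decapitated WT to 29.2 TPM on DMSO and a share from 18.9% in intact WT to 24.5% on rac-GR24. In each group, the libraries of NF-YA4, of NF-YA1 and of the member after it did not overlap.

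Below these came a middle range and a low end. NF-YA5 and NF-YA6 share 31.8% and 27.8% of their exon bases with opposite-strand genes, so their levels and places here are less certain. NF-YA7, NF-YA9 and NF-YA2 averaged from 6.62 to 14.3 TPM, and NF-YA8, NF-YA3 and NF-YA6 from 3.83 to 8.81 TPM. Their order changed between groups, and neighbours often overlapped: NF-YA7 and NF-YA9 overlapped in intact brc1-2 and in intact WT, NF-YA8 and NF-YA2 in intact WT, and NF-YA6, NF-YA3 and NF-YA8 did so from one to the next in seedlings of both kinds. NF-YA10 (AT5G06510; chromosome 5, 1984823 to 1987064) and NF-YA5 (AT1G54160; chromosome 1, 20217336 to 20219452) were the lowest members everywhere, with NF-YA5 at 0.88 ± 0.04 TPM on rac-GR24 and 1.37 ± 0.27 TPM on DMSO.

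**Figure D1:**
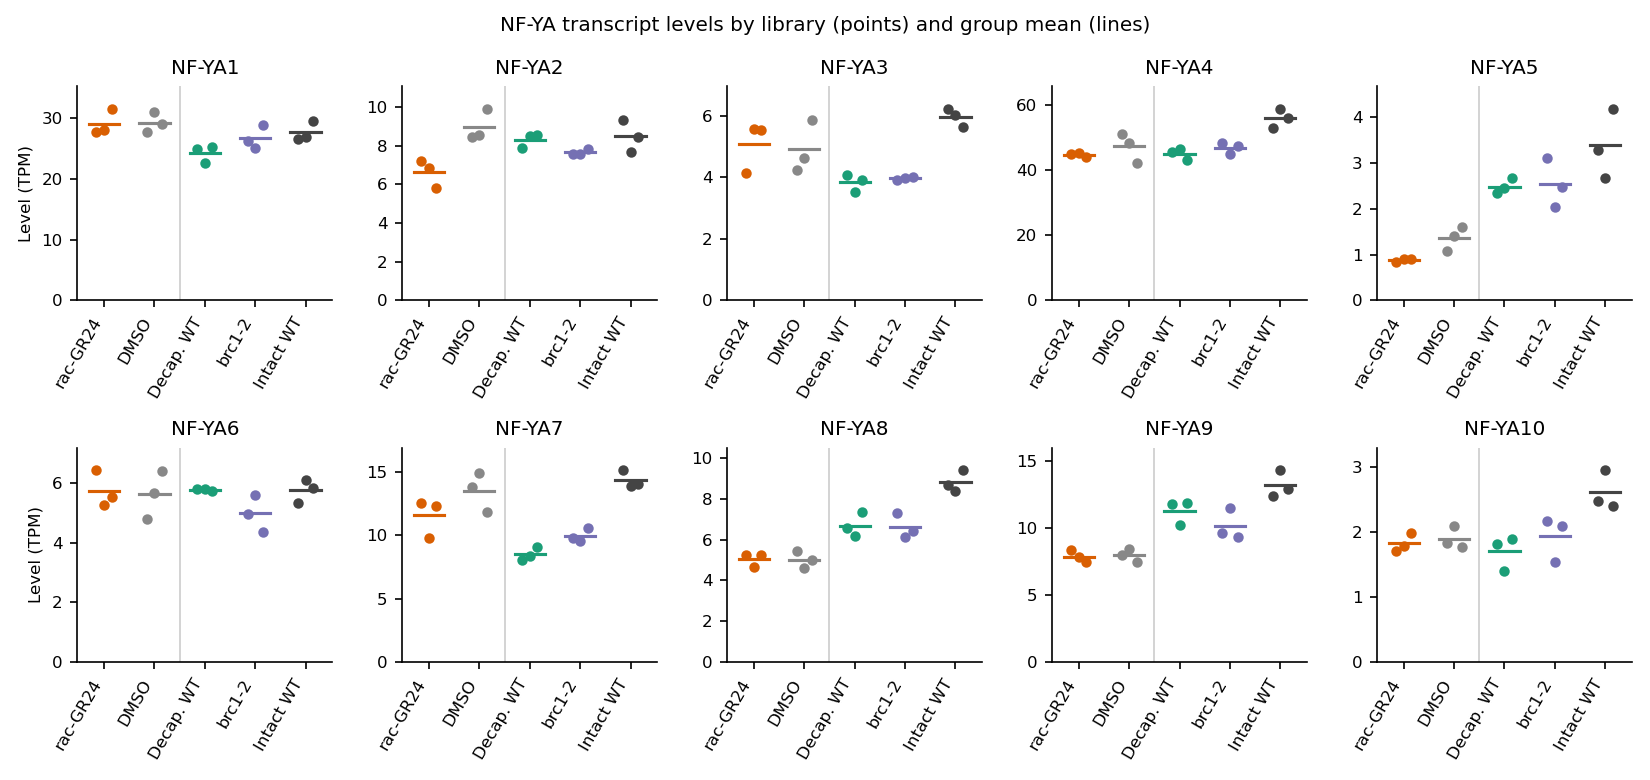
Level of each NF-YA gene in TPM (y axis, from 0) in the 15 libraries (points) with group means (lines), by group (x axis), seedlings left of the grey line and axillary tissue right of it. NF-YA3, NF-YA4, NF-YA7, NF-YA8, NF-YA9 and NF-YA10 had all 3 intact WT libraries above all decapitated WT and brc1-2 libraries, and NF-YA4 was the most abundant member throughout.

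Summed over the family, the level in axillary tissue was 118.6, 115.3 and 119.3 TPM in decapitated WT, 122.7, 117.8 and 123.3 TPM in intact brc1-2, and 142.0, 147.5 and 148.2 TPM in intact WT. Every intact WT library lay above every library of both other groups, and decapitated WT and brc1-2 overlapped. The difference of the mean sum from intact WT was -19.3% in decapitated WT and -16.9% in brc1-2. In seedlings the sum was 118.9, 115.9 and 120.3 TPM on rac-GR24 and 126.2, 129.5 and 121.0 TPM on DMSO, which did not overlap but came close at the nearest libraries. No test was run on the sums, since they are set largely by NF-YA4 and NF-YA1.

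The comparison of intact brc1-2 with intact WT asks how axillary transcripts depend on BRC1, and that of decapitated WT with intact WT how they respond to loss of the shoot tip. In brc1-2, 8 of the 10 NF-YA genes were called lower and 0 higher by edgeR's quasi-likelihood test, where 60.9% of the 21539 genes tested were called, 30.5% lower and 30.4% higher; at an unadjusted p under 0.05 the counts were 9 lower and 0 higher. After decapitation, 8 were called lower and 0 higher, where 62.9% of all genes tested were called, 33.5% lower and 29.4% higher, and the unadjusted counts were also 8 lower and 0 higher. The median log2 change of the 10 genes was -0.42 in brc1-2 and -0.40 after decapitation, against 0.0043 and -0.035 over all genes tested. DESeq2 and limma-voom also called 0 NF-YA genes higher in both.

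The paralogs NF-YA3 and NF-YA8, which act together in early embryo development, were both lower in both comparisons. NF-YA3 (AT1G72830; chromosome 1, 27405145 to 27408221) had 4.08, 3.51 and 3.90 TPM in decapitated WT, 3.90, 3.99 and 4.00 TPM in intact brc1-2, and 6.21, 6.01 and 5.62 TPM in intact WT. Intact WT stood apart from the other two groups, which overlapped. The log2 change was -0.68 ± 0.09 after decapitation (SE; edgeR adjusted p = 3.2e-07) and -0.61 ± 0.09 in brc1-2 (edgeR adjusted p = 1.9e-06).

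NF-YA8 (AT1G17590; chromosome 1, 6050164 to 6052628) showed the same arrangement of groups at a higher level. It had 6.56, 6.16 and 7.33 TPM in decapitated WT, 7.32, 6.12 and 6.41 TPM in intact brc1-2, and 8.69, 8.36 and 9.38 TPM in intact WT. Its log2 change was -0.45 ± 0.09 after decapitation (edgeR adjusted p = 7.5e-05) and -0.44 ± 0.09 in brc1-2 (edgeR adjusted p = 9.7e-05), with intact WT again above all 6 other libraries. NF-YA8 exceeded NF-YA3 by a ratio of mean TPM of 1.75 in decapitated WT, 1.67 in brc1-2 and 1.48 in intact WT, while the ratio was 1.00 on rac-GR24 and 1.02 on DMSO.

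NF-YA4 and NF-YA7 are also paralogs, and NF-YA7 (AT1G30500; chromosome 1, 10804450 to 10806428) had the largest change of the family after decapitation. It had 8.06, 8.33 and 9.06 TPM in decapitated WT, 9.77, 9.54 and 10.6 TPM in intact brc1-2, and 15.1, 13.9 and 14.0 TPM in intact WT. The 3 groups did not overlap, with decapitated WT lowest and intact WT highest. Its log2 change was -0.81 ± 0.09 after decapitation (edgeR adjusted p = 1.3e-08) and -0.55 ± 0.09 in brc1-2 (edgeR adjusted p = 6.8e-06).

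NF-YA4 changed less on the log2 scale and, being the most abundant member, contributed most to the lower sums. It had 45.4, 46.3 and 43.0 TPM in decapitated WT, 48.1, 44.99 and 47.35 TPM in intact brc1-2, and 52.7, 58.6 and 55.9 TPM in intact WT, with all intact WT libraries above the rest. On the log2 scale it differed by -0.36 ± 0.05 after decapitation (edgeR adjusted p = 2.6e-07) and -0.28 ± 0.05 in brc1-2 (edgeR adjusted p = 1.4e-05).

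NF-YA1 and NF-YA9 are paralogs with roles in male gametophyte and embryo development. NF-YA9 was called in both comparisons and NF-YA1 after decapitation; whether the paralogs differ in their change was not tested. NF-YA9 (AT3G20910; chromosome 3, 7326355 to 7328581) had 11.8, 10.2 and 11.9 TPM in decapitated WT, 9.61, 11.5 and 9.32 TPM in intact brc1-2, and 12.4, 14.3 and 12.9 TPM in intact WT. Intact WT lay above both other groups. For NF-YA9 the log2 change was -0.27 ± 0.09 after decapitation (edgeR adjusted p = 0.012) and -0.41 ± 0.09 in brc1-2 (edgeR adjusted p = 0.00041). The call after decapitation was lost without decapitated WT replicate 2 (adjusted p = 0.0694), without intact WT replicate 2 (0.0839) and with the trend of counts on exon length removed (0.139).

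NF-YA1 had 24.8, 22.6 and 25.2 TPM in decapitated WT, 26.2, 25.0 and 28.9 TPM in intact brc1-2, and 26.5, 26.9 and 29.4 TPM in intact WT. Decapitated WT lay below all intact WT libraries, and brc1-2 overlapped both. NF-YA1 was called lower after decapitation (-0.24 ± 0.06; edgeR adjusted p = 0.00072) and was not called in brc1-2 (-0.07, 95% interval -0.19 to 0.04; edgeR adjusted p = 0.28).

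NF-YA2 and NF-YA10 are paralogs that affect leaf and root growth. NF-YA10 was called in both comparisons and NF-YA2 in neither; their difference was not tested. NF-YA10 had 1.81, 1.41 and 1.89 TPM in decapitated WT, 2.17, 1.54 and 2.098 TPM in intact brc1-2, and 2.49, 2.95 and 2.40 TPM in intact WT, which was above both others. It was lower by a log2 change of -0.67 ± 0.16 after decapitation (edgeR adjusted p = 0.00077) and -0.46 ± 0.16 in brc1-2 (edgeR adjusted p = 0.015). The brc1-2 call was lost without brc1-2 replicate 2a (adjusted p = 0.108) and without intact WT replicate 2 (0.0931).

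NF-YA2 (AT3G05690; chromosome 3, 1676504 to 1679061) had 7.88, 8.49 and 8.56 TPM in decapitated WT, 7.58, 7.54 and 7.82 TPM in intact brc1-2, and 9.34, 7.65 and 8.46 TPM in intact WT. Both groups overlapped intact WT, and neither comparison called it (-0.08, 95% interval -0.25 to 0.10, edgeR adjusted p = 0.44 after decapitation; -0.17, interval -0.34 to -0.0009, edgeR adjusted p = 0.076 in brc1-2). Without intact WT replicate 2 it was called in brc1-2 (-0.24; adjusted p = 0.0224). NF-YA2 exceeded NF-YA10 by a ratio of mean TPM of 4.88 in decapitated WT, 3.95 in brc1-2 and 3.25 in intact WT.

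NF-YA5, known for its part in drought tolerance and stomatal closure, and its paralog NF-YA6 share exon bases with genes on the opposite strand, 31.8% and 27.8% of theirs. No source used here gives the strand setting of the counting, and reads in those stretches cannot be told apart from their partners' reads. NF-YA5 had 2.34, 2.44 and 2.66 TPM in decapitated WT, 3.09, 2.04 and 2.46 TPM in intact brc1-2, and 3.28, 2.67 and 4.17 TPM in intact WT, where replicate 3 was the highest. Decapitated WT and intact WT nearly touched at their nearest libraries and brc1-2 overlapped both. The log2 change was -0.49 ± 0.18 after decapitation (edgeR adjusted p = 0.017) and -0.44 ± 0.18 in brc1-2 (edgeR adjusted p = 0.031).

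Both NF-YA5 calls were lost without intact WT replicate 3 (adjusted p = 0.165 after decapitation and 0.244 in brc1-2) and with the length trend removed (0.0518 and 0.0947). The brc1-2 call was also lost without brc1-2 replicate 2a (0.164) or 2b (0.0751). AT1G54150, the main gene across NF-YA5, had 615, 594 and 562 counts in decapitated WT, 612, 616 and 800 in brc1-2 and 620, 708 and 652 in intact WT.

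NF-YA6 (AT3G14020; chromosome 3, 4641930 to 4644571) had 5.80, 5.79 and 5.74 TPM in decapitated WT, 4.98, 5.61 and 4.37 TPM in intact brc1-2, and 5.32, 6.12 and 5.82 TPM in intact WT. Both groups overlapped intact WT. The log2 change was -0.04 (95% interval -0.25 to 0.16; edgeR adjusted p = 0.73) after decapitation and -0.23 ± 0.10 in brc1-2 (edgeR adjusted p = 0.045). The brc1-2 call was lost in 7 of 14 alternatives: without brc1-2 replicate 1 (adjusted p = 0.0865) or 2b (0.251), without intact WT replicate 2 (0.167) or 3 (0.0849), with DESeq2 (0.0622), with DESeq2 size factors (0.0575) and with the length trend removed (0.0719).

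**Figure D2:**
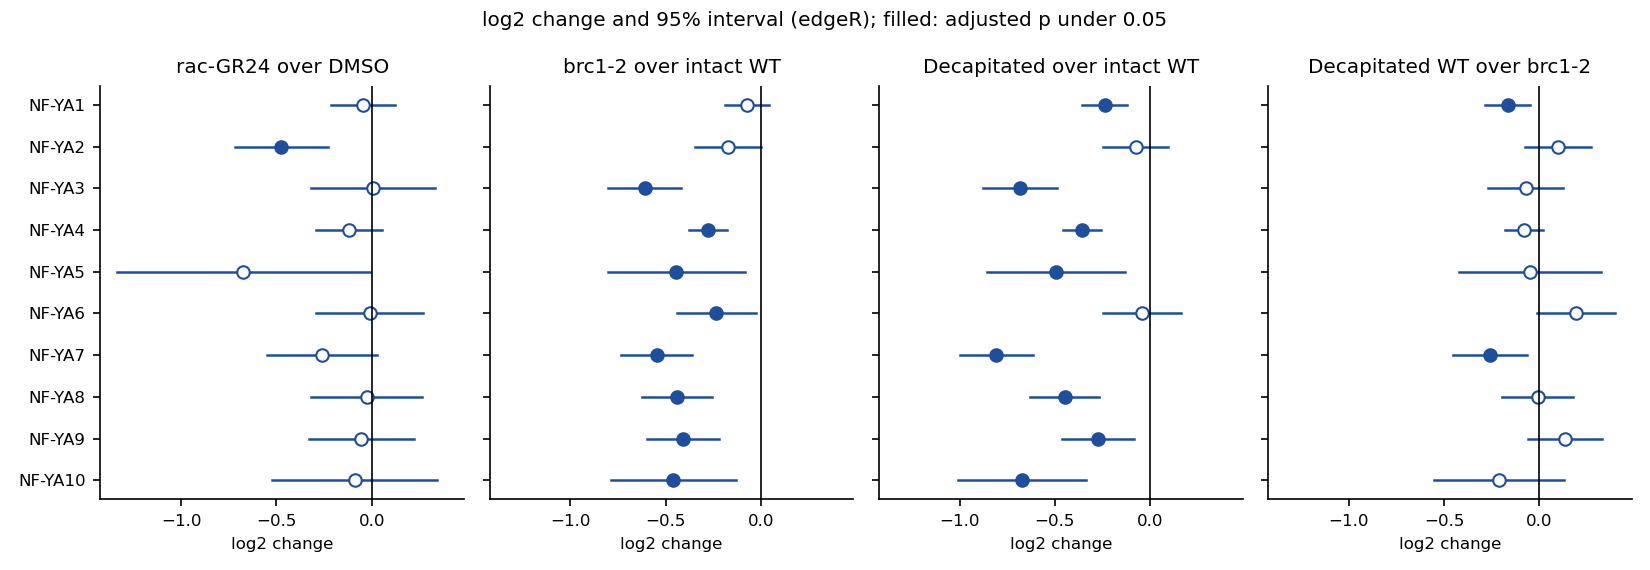
log2 change (x axis) of the 10 NF-YA genes (rows) with its 95% interval (lines) in the 4 comparisons (panels); filled points have an edgeR adjusted p under 0.05. In the brc1-2 and decapitation panels 8 points each are filled and all lie left of 0, while NF-YA2 is the one filled point for rac-GR24.

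Markers of other tissues moved in the same libraries. The 12 leaf photosynthesis markers were called lower in 12 cases after decapitation, and higher in 11 cases and lower in 0 in brc1-2. Of all genes tested, 33.5% were called lower after decapitation and 30.4% higher in brc1-2. Their sum ran from 36620 to 37060 TPM in decapitated WT, from 56140 to 56450 TPM in brc1-2 and from 43640 to 44080 TPM in intact WT. Against intact WT the sum was thus lower after decapitation and higher in brc1-2, and no photosynthesis marker was at 0. The 9 tapetum and anther markers summed to 7.71 to 8.20 TPM in decapitated WT, 29.6 to 32.4 TPM in brc1-2 and 6.71 to 7.27 TPM in intact WT. Of the 7 tested, 4 passed the filter on low counts only through brc1-2, where they were high (A9, MS1, CYP703A2 and CYP704B1), so no count of calls is given for this list. MS1, CYP703A2 and ATA7 were at 0 in decapitated WT and in intact WT, and ATA7 was at 0 in brc1-2.

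The 7 leaf axil and bud markers, a list that includes BRC1 itself, summed to 45.4 to 50.02 TPM in decapitated WT, 46.5 to 49.7 TPM in brc1-2 and 53.1 to 55.4 TPM in intact WT. All intact WT libraries thus lay above all others for this list, but this order rests on BRC1. BRC1 had 5.262, 4.406 and 5.306 TPM in intact WT and 1.212, 1.198 and 1.127 TPM in decapitated WT. In brc1-2 it had 0.02734, 0.04906 and 0.02252 TPM. With BRC1 left out of the sum, both other groups would overlap intact WT. Any link of this list to the NF-YA sum was not tested. After decapitation 3 of the 7 were called lower (BRC1, RAX1 and the meristem gene STM) and 1 higher (the boundary gene CUC3). In brc1-2 BRC1 was the 1 called lower, with 0 called higher. Among all genes tested, 33.5% were called lower and 29.4% higher after decapitation, and 30.5% lower and 30.4% higher in brc1-2. STM, which made up most of the sum, had 34.3, 34.4 and 38.1 TPM in decapitated WT, 39.6, 38.9 and 41.25 TPM in brc1-2 and 40.4, 40.8 and 42.3 TPM in intact WT.

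The 5 root markers summed to 439.7 to 463.3 TPM in decapitated WT, 151.9 to 154.9 TPM in brc1-2 and 256.9 to 271.6 TPM in intact WT, nearly all of it from PYK10, a beta-glucosidase gene. Of the 2 tested, PYK10 was called higher after decapitation and lower in brc1-2 and CASP1 in neither. EXPA18 was at 0 in decapitated WT and EXPA7 in intact WT. The 11 seed storage markers summed to 2.11 to 3.05 TPM in decapitated WT, 0.0750 to 0.322 TPM in brc1-2 and 0.317 to 0.813 TPM in intact WT. SESA1, the 1 tested, passed the filter only through decapitated WT, with 66, 60 and 37 counts there, 0, 0 and 2 in brc1-2 and 0 in all 3 intact WT libraries. CRB, CRC, SESA3 and SESA4 were at 0 in all 3 groups, as were CRA1 in decapitated WT, EM1 in brc1-2 and OLEO2 in intact WT. The part of these tissues and markers in the NF-YA changes was not tested.

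Decapitated WT set directly against intact brc1-2 tests whether their NF-YA levels differ. NF-YA7 (-0.26 ± 0.09; edgeR adjusted p = 0.025) and NF-YA1 (-0.17 ± 0.06; edgeR adjusted p = 0.019) were called lower in decapitated WT and 0 were called higher, where 48.5% of all genes tested were called, 24.1% lower and 24.4% higher; the unadjusted counts were also 2 lower and 0 higher. NF-YA7 did not overlap between these groups. NF-YA1 overlapped in TPM, with 25.2 TPM in the highest decapitated WT library and 25.0 TPM in the lowest brc1-2 library, but not in the TMM-scaled counts that were tested. The other 8 were not called, with intervals that reach from -0.27 to 0.12 for NF-YA3, from -0.19 to 0.18 for NF-YA8, from -0.18 to 0.02 for NF-YA4 and from -0.56 to 0.13 for NF-YA10. NF-YA6 (0.19), NF-YA9 (0.13) and NF-YA2 (0.10, 95% interval -0.08 to 0.27) had positive changes, with edgeR adjusted p = 0.12, 0.25 and 0.36. The decapitated WT and brc1-2 libraries of NF-YA2 did not overlap, although it was not called.

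Neither call held in every subset. Without brc1-2 replicate 2b both were lost (adjusted p = 0.113 for NF-YA7 and 0.201 for NF-YA1), as they were without decapitated WT replicate 2 (0.0565 and 0.114), and NF-YA7 was lost without decapitated WT replicate 1 (0.0821) and with no filter on low counts (0.07). Without brc1-2 replicate 2a, NF-YA6 was called higher in decapitated WT (0.29; adjusted p = 0.0334).

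In whole seedlings, where the question is how transcripts respond to a strigolactone analogue, 1 of the 10 NF-YA genes was called lower on rac-GR24 and 0 higher by edgeR's quasi-likelihood test, where 24% of the 21063 genes tested were called, 11.7% lower and 12.4% higher. One call among 10 is near that share. At an unadjusted p under 0.05 the counts were 2 lower and 0 higher, and DESeq2 and limma-voom also called 1 lower and 0 higher. NF-YA2 had 7.19, 6.86 and 5.82 TPM on rac-GR24 and 8.42, 8.545 and 9.89 TPM on DMSO, with no overlap. Its log2 change was -0.47 ± 0.11 (edgeR adjusted p = 0.0071), and it was called in all 14 alternatives, with a log2 change from -0.52 to -0.40.

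NF-YA5 had the largest fitted change in seedlings and did not pass. It had 0.84, 0.90 and 0.90 TPM on rac-GR24 and 1.08, 1.41 and 1.61 TPM on DMSO, which did not overlap, from 27 to 31 counts per library on rac-GR24 and 34 to 65 on DMSO. The log2 change was -0.67 with a 95% interval from -1.34 to -0.0085 (edgeR adjusted p = 0.14), so at this depth the difference was not told apart from none after adjustment.

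The other 8 members were not called on rac-GR24. NF-YA7 had 12.6, 9.78 and 12.3 TPM on rac-GR24 and 13.8, 14.9 and 11.8 TPM on DMSO (-0.26; edgeR adjusted p = 0.19). NF-YA3, lower in both axillary comparisons, had 4.15, 5.56 and 5.53 TPM on rac-GR24 and 4.24, 4.64 and 5.86 TPM on DMSO (0.01, 95% interval -0.32 to 0.33; edgeR adjusted p = 0.99). Both overlapped. NF-YA4 had -0.12, with an interval from -0.29 to 0.06, and was called without DMSO replicate 3 (-0.21; adjusted p = 0.0388).

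Marker sums also differed between the seedling groups. Of all genes tested there, 11.7% were called lower and 12.4% higher on rac-GR24. Leaf photosynthesis markers, of which 7 of 12 were called lower and none was at 0, summed to 55780 to 59590 TPM on rac-GR24 and 62500 to 68330 TPM on DMSO. Root markers, of which 4 of 5 were called higher and none was at 0, summed to 4363 to 4667 TPM on rac-GR24 and 2416 to 2821 TPM on DMSO. Seed storage markers, of which 4 of the 7 tested needed the rac-GR24 libraries to pass the filter on low counts, summed to 9.87 to 60.9 TPM on rac-GR24 and 4.18 to 8.25 TPM on DMSO, with EM1 at 0 on rac-GR24 and SESA1 and SESA4 at 0 on DMSO. Their part in the NF-YA2 difference was not tested.

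Levels can also be set side by side across the tables, although tissue and batch label differ together there and cannot be told apart, so no test was run. Intact WT axillary tissue and DMSO seedlings did not overlap for 5 of the 10 members, all 5 higher in axillary tissue. Of the 19860 genes with a mean of at least 1 TPM in these libraries, 80.6% did not overlap, 42.6% being higher and 37.9% lower in intact WT. The 5 of 10 that did not overlap are a smaller share than that 80.6%. The 5 of 10 that were higher are near the 42.6%, and 0 were lower. The ratios of mean TPM were 2.47 for NF-YA5, 1.76 for NF-YA8, 1.66 for NF-YA9, 1.38 for NF-YA10 and 1.18 for NF-YA4. NF-YA1, NF-YA2, NF-YA3, NF-YA6 and NF-YA7 overlapped, with ratios from 0.946 to 1.21. Across the 5 group means NF-YA5 varied most, by 3.83-fold between intact WT and rac-GR24 seedlings, and NF-YA6 least, by 1.16-fold between decapitated WT and brc1-2. Both share exon bases with opposite-strand genes, so these spreads are less certain.

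The partner subunits did not share one direction in axillary tissue, and calls over all genes were also split. Of all genes tested, 33.5% were called lower and 29.4% higher after decapitation, and 30.5% lower and 30.4% higher in brc1-2. Of the 13 NF-YB genes 10 were tested there; 4 were called lower and 3 higher after decapitation (median log2 change 0.01), and 4 lower and 2 higher in brc1-2 (median -0.12). NF-YB5 is 1 of the 4 lower in each, and it passed the filter on low counts only through intact WT, where it was highest. Of the 13 NF-YC genes 9 were tested; 4 were lower and 4 higher after decapitation (median -0.05), and 4 lower and 3 higher in brc1-2 (median -0.09). In decapitated WT against brc1-2, 2 NF-YB genes were lower and 4 higher, where 24.1% of all genes tested were lower and 24.4% higher. NF-YB5 is 1 of the 4 higher there, with 16, 2 and 0 counts in decapitated WT and 0, 0 and 2 in brc1-2, which overlapped. Of the NF-YC genes 3 were lower and 0 higher, with 1 higher at an unadjusted p under 0.05. Summed NF-YB levels ran from 227.6 to 235.7 TPM in decapitated WT, from 231.4 to 233.9 TPM in brc1-2 and from 252.3 to 261.9 TPM in intact WT. Summed NF-YC levels ran from 185.6 to 191.5 TPM in decapitated WT, from 196.2 to 202.8 TPM in brc1-2 and from 185.9 to 195.9 TPM in intact WT.

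NF-YB2 and NF-YB3, which promote flowering together with CONSTANS, were the NF-YB genes with the smallest p after decapitation. NF-YB2 had 30.3, 35.3 and 28.6 TPM in decapitated WT, 35.1, 33.1 and 34.9 TPM in brc1-2, and 56.2, 58.1 and 59.1 TPM in intact WT (-0.92 ± 0.06 after decapitation, edgeR adjusted p = 2.4e-13; -0.78 ± 0.06 in brc1-2, edgeR adjusted p = 8.9e-12), and 42.8% of its exon bases are shared with genes on the opposite strand. NF-YB3 had 44.99, 44.2 and 42.3 TPM in decapitated WT, 58.8, 61.0 and 61.2 TPM in brc1-2 and 64.6, 61.9 and 60.4 TPM in intact WT, and was lower after decapitation against intact WT (-0.55 ± 0.05; edgeR adjusted p = 9.9e-11) and against brc1-2 (-0.48 ± 0.05; edgeR adjusted p = 3.0e-09).

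NF-YB8 and NF-YB10 went the other way in the decapitated tissue. NF-YB8 had 21.0, 20.4 and 20.4 TPM in decapitated WT, 14.1, 12.0 and 12.6 TPM in brc1-2 and 13.9, 14.1 and 14.9 TPM in intact WT, and was higher in decapitated WT against intact WT (0.48 ± 0.08; edgeR adjusted p = 9.7e-06) and against brc1-2 (0.66 ± 0.08; edgeR adjusted p = 1.2e-07). NF-YB10 was higher in decapitated WT against brc1-2 (0.35 ± 0.06; edgeR adjusted p = 1.0e-05). NF-YB5 and NF-YB7 were scarce: NF-YB5 had 0, 0 and 2 counts in brc1-2 and 24, 17 and 28 in intact WT, and no fold or p is given for it, while NF-YB7 had 33, 36 and 34 counts in brc1-2 and 4, 21 and 10 in intact WT (1.51 ± 0.46; edgeR adjusted p = 0.0054).

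Among NF-YC genes, NF-YC4, which acts with NF-YC3 and NF-YC9 in flowering, had 10.3, 11.9 and 12.0 TPM in decapitated WT, 17.9, 17.3 and 17.0 TPM in brc1-2 and 20.1, 18.3 and 19.0 TPM in intact WT. It was lower in decapitated WT against intact WT (-0.79 ± 0.07; edgeR adjusted p = 3.0e-11) and against brc1-2 (-0.63 ± 0.07; edgeR adjusted p = 6.6e-09), and 21.2% of its exon bases are shared with a gene on the opposite strand. NF-YC1 was likewise lower in decapitated WT against both (-0.50 and -0.41; edgeR adjusted p = 1.4e-07 and 6.5e-06), and NF-YC13 was higher against intact WT (0.48 ± 0.10; edgeR adjusted p = 0.00012).

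NF-YC12 was the NF-YC gene with the smallest p in brc1-2. It had 17.0, 19.3 and 25.2 TPM in decapitated WT, 27.0, 27.2 and 27.8 TPM in brc1-2 and 15.4, 15.3 and 16.1 TPM in intact WT. Against intact WT it was higher in brc1-2 (0.79 ± 0.08, edgeR adjusted p = 4.9e-09) and after decapitation (0.34 ± 0.09, edgeR adjusted p = 0.0012). It was lower in decapitated WT than in brc1-2 (-0.45 ± 0.08, edgeR adjusted p = 5.5e-05). NF-YC9 and NF-YC10 were lower in brc1-2 than in intact WT by log2 changes of -0.19 each (edgeR adjusted p = 0.00086 and 0.0084).

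**Figure D3:**
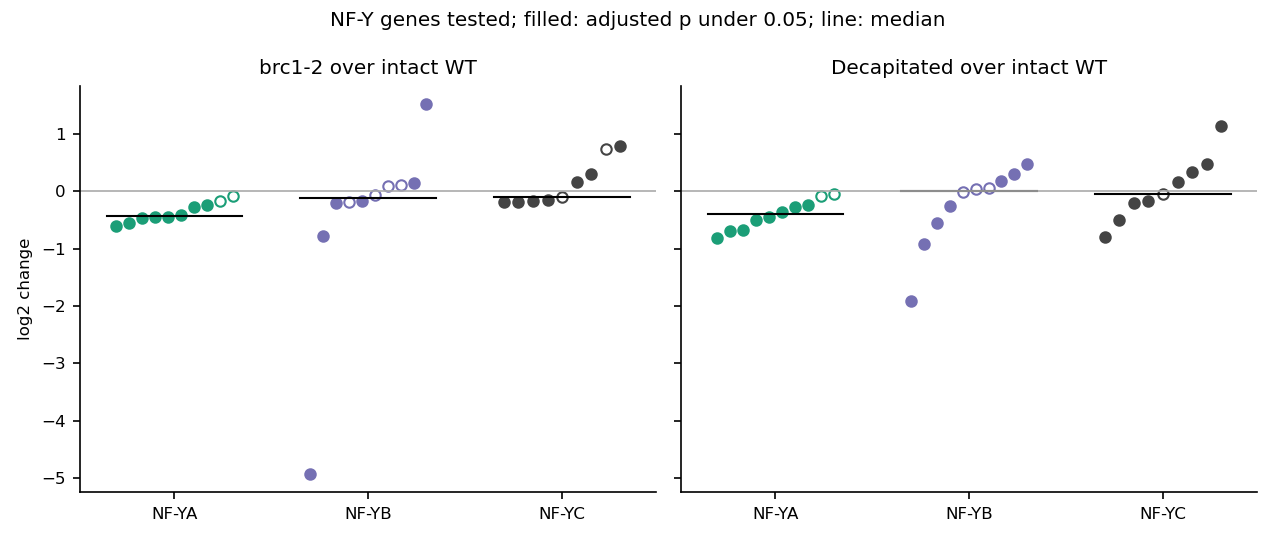
log2 change (y axis) of each NF-YA, NF-YB and NF-YC gene tested (points, sorted within a family) in brc1-2 and in decapitated WT over intact WT (panels); filled points have an edgeR adjusted p under 0.05 and black lines are medians. All 10 NF-YA points lie below 0 in both panels, while NF-YB and NF-YC points lie on both sides.

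In seedlings, 1 of 9 tested NF-YB genes was called on rac-GR24, where 24% of all genes tested were called. NF-YB2 had 47.1, 43.1 and 45.6 TPM on rac-GR24 and 33.6, 39.7 and 33.9 TPM on DMSO and was higher (0.30 ± 0.08; edgeR adjusted p = 0.013). Of 8 tested NF-YC genes 0 were called by edgeR, with 1 higher and 1 lower at an unadjusted p under 0.05.

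NF-YA genes are commonly grouped by whether miR169 can pair with their transcripts. NF-YA1, NF-YA2, NF-YA3, NF-YA5, NF-YA8, NF-YA9 and NF-YA10 are known targets, and NF-YA4, NF-YA6 and NF-YA7 are not counted among them. After decapitation 6 of the 7 targets and 2 of the 3 others were called lower (median log2 change -0.45 and -0.36), and in brc1-2 5 of 7 and 3 of 3 (median -0.44 and -0.28). Over all genes tested, 33.5% were called lower after decapitation and 30.5% in brc1-2. Members of both kinds were among those called lower in both comparisons, and whether the kinds differ was not tested.

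Counts on the MIR169 genes come from their primary transcripts and do not measure the mature microRNA. Of 14 MIR169 genes 5 were tested in axillary tissue. MIR169K had 35, 72 and 67 counts in decapitated WT, 44, 49 and 55 in brc1-2 and 119, 92 and 108 in intact WT (-0.86 ± 0.25, edgeR adjusted p = 0.0037 after decapitation; -1.17 ± 0.25, edgeR adjusted p = 0.00025 in brc1-2). MIR169M had 47, 52 and 44 counts in decapitated WT, 22, 29 and 56 in brc1-2 and 85, 107 and 68 in intact WT (-0.85 ± 0.27, edgeR adjusted p = 0.0089 after decapitation; -1.35 ± 0.28, edgeR adjusted p = 0.00017 in brc1-2). Intact WT was above all other libraries for both genes.

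MIR169A had 61, 45 and 69 counts in decapitated WT, 30, 53 and 42 in brc1-2 and 58, 72 and 66 in intact WT, and was called lower in brc1-2 (-0.70 ± 0.28; edgeR adjusted p = 0.031). Summed over the 13 genes in both tables, MIR169 levels were 21.3 to 29.9 TPM in decapitated WT, 17.6 to 20.6 TPM in brc1-2 and 36.3 to 42.5 TPM in intact WT, and 27.2 to 30.8 TPM on rac-GR24 and 35.6 to 40.1 TPM on DMSO. In seedlings 0 of 7 tested MIR169 genes were called on rac-GR24, where 24% of all genes tested were called. MIR169N was the 1 lower there at an unadjusted p under 0.05. It passed the filter on low counts only through DMSO, where it was higher. MIR169J and MIR169L also needed DMSO to pass, and MIR169I needed rac-GR24. In decapitated WT against brc1-2 0 of 5 were called, with 0 at an unadjusted p under 0.05, where 48.5% of all genes tested were called. In axillary tissue MIR169E and MIR169L would not have passed without the brc1-2 libraries, nor without the intact WT libraries. These genes are short and most of the 14 had few counts in every library, so small differences in them were not detectable at this depth.

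**Figure D4:**
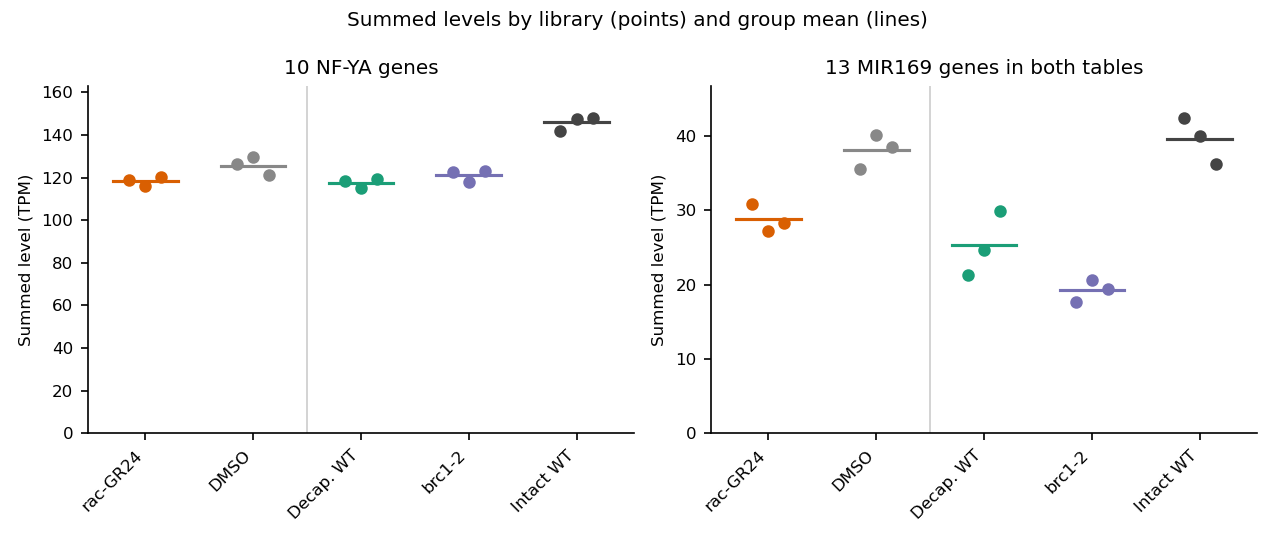
Summed level in TPM (y axis, from 0) of the 10 NF-YA genes and of the 13 MIR169 genes present in both tables, by library (points) and group mean (lines). Both sums were highest in intact WT among the axillary groups, with 142.0 to 148.2 TPM for NF-YA and 36.3 to 42.5 TPM for MIR169.

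The genes most like NF-YA7 and NF-YA3, the members with the largest F statistic over the 3 axillary groups, were sought among 19079 genes with a mean of at least 1 TPM, by Pearson's r of log2(TPM + 1) over the 9 axillary libraries. These r describe libraries that share 3 groups, so a gene with the same order of groups can score high. For NF-YA7 they were SUS3 (a sucrose synthase gene; r = 0.993), AT5G22460 (0.992), AT1G15740 (0.991), AT3G02700 (0.991) and ACX2 (an acyl-CoA oxidase gene of fatty acid breakdown; 0.991). For NF-YA3 they were AT2G36330 (0.994), AT2G40420 (0.994), AT2G32870 (0.993), AT5G64880 (0.989) and AT1G22790 (0.989). SUS3 averaged 0.53 TPM in decapitated WT, 0.95 TPM in brc1-2 and 2.30 TPM in intact WT, the same order as NF-YA7.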

How the data were processed

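Raw counts for each gene were deposited by the authors as integers, with exon positions and lengths in the layout of featureCounts, per the file headers. The genome was TAIR10, and the submitters' processing notes list cutadapt 3.5, HISAT2 2.0.5, SAMtools 1.13, featureCounts 2.0.1 and DESeq2 1.32.0, without order or settings; strand and multi-mapping settings are not given in the sources used here. The seedling table ended in 1 incomplete line and lacks 609 genes of the axillary table. All 10 NF-YA symbols matched the reference gene table. In the axillary data 2 columns carry the same brc1-2 number and are called 2a and 2b. Small counts were even in 60.8% to 71.8% of cases, as when both mates are counted, so a count is not an independent fragment.

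Genes were filtered with filterByExpr (minimum count 10, total 15), scaled by TMM and tested with edgeR 4.0.16 (quasi-likelihood) in R 4.3.3, with Benjamini-Hochberg adjustment over all genes tested with 0.05 as the threshold. Axillary libraries (9) and seedling libraries (6) were fitted separately. SE was obtained by dividing the absolute log2 change by the square root of F. Alternatives used DESeq2 1.42.0, limma 3.58.1 (voom), other filters, length-trend removal, halved counts, the groups compared alone, leaving out each library and a replicate block.

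All 10 NF-YA genes are named whatever their values; of the NF-YB, NF-YC and MIR169 lists, up to 3 called genes per comparison with the smallest adjusted p; and the 5 most correlated genes for the 2 NF-YA genes with the largest F. Members and lists were chosen with earlier results of these data known.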

Additional observations from a re-analysis of the deposited data

How the results depend on the processing

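Over the 40 member results (10 genes in 4 comparisons), 569 alternative values were computed: 523 kept direction and side of the threshold, 24 lost a call, 3 gained one and 19 changed sign, all of them in members not called. Called lower under every alternative run were NF-YA3, NF-YA4, NF-YA7, NF-YA8 and NF-YA9 in brc1-2, NF-YA1, NF-YA3, NF-YA4, NF-YA7, NF-YA8 and NF-YA10 after decapitation, and NF-YA2 on rac-GR24. The count of NF-YA genes lower in brc1-2 was 7 with DESeq2 and with DESeq2 size factors, 6 with the length trend removed, and 6 to 8 leaving out each library; after decapitation it was 6 with the length trend removed and 7 to 8 leaving out each library. For decapitated WT against brc1-2 it was 1 with no filter and 0 to 2 leaving out each library, with 0 to 1 higher; for rac-GR24 it was 1 to 2 leaving out each library. The causes were not tested.

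Changes near 0 changed sign. In rac-GR24 against DMSO, NF-YA3 became -0.032 with limma-voom, -0.0067 with the length trend removed and -0.0041 with halved counts, and NF-YA1 in brc1-2 became 0.0070 with the length trend removed. NF-YA8 in decapitated WT against brc1-2 became 0.024 with no filter. Leaving out each library, the ranges were -0.11 to 0.0014 for NF-YA1, -0.075 to 0.15 for NF-YA3, -0.0925 to 0.079 for NF-YA6 and -0.086 to 0.058 for NF-YA8 on rac-GR24, -0.10 to 0.0061 for NF-YA6 after decapitation, and -0.18 to 0.11 for NF-YA5 and -0.060 to 0.066 for NF-YA8 in decapitated WT against brc1-2. NF-YA5 on rac-GR24 had no value under a filter of at least 1 CPM in 3 libraries, which removed it.

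Whether replicate numbers pair the samples cannot be settled with 3 libraries a group. Same-numbered deviations correlated at 0.136, -0.0272 and -0.0762 for rac-GR24 and DMSO and at 0.0186, 0.0172 and 0.0261 for decapitated and intact WT. Deviations with different numbers correlated at -0.123 to 0.157 for rac-GR24 and DMSO. For decapitated and intact WT they correlated at -0.0209 to 0.0044. With a replicate block, NF-YA genes lower numbered 1 on rac-GR24 and 8 after decapitation, among 4712 and 13406 genes called. No paired analysis was possible because 2 columns carry the same number for the comparisons with brc1-2. Depth limits NF-YA5 and NF-YA10 in seedlings and most MIR169 genes, which hold few counts.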
